A study of Mus musculus with 18 samples.

Results

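The fibroblast growth factor (FGF) ligands, their receptors and their feedback inhibitors were followed across 3 groups of sorted mouse cortical neurons. The members were taken by symbol: every Fgf gene with a number alone after the letters, Fgfr1 to Fgfr4, the decoy receptor gene Fgfrl1, Spry1 to Spry4 and Spred1 to Spred3. This gave 34 of the 24015 genes in the count table: 15 secreted paracrine ligands, 3 endocrine ligands, 4 intracellular FGFs, 5 receptor genes, 4 Sprouty and 3 Spred inhibitors. The groups were Tbr1 null layer 6 neurons, wild-type (WT) layer 5 neurons and WT layer 6 neurons, with 4 RNA libraries each, all from tdTomato-positive cells sorted from cortices of mice at postnatal day 5. Tbr1 encodes a transcription factor with a T-box domain that neurons of the deep cortical layers express, and the series title asks how its dosage after birth bears on layer 6 connectivity. The sample labels call the mutant a layer 6 null and the design text calls it constitutive, so it is called null here. The labels do not say which driver or transgene marks the tdTomato-positive cells, nor how many animals gave a library.

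Secreted FGFs bind tyrosine kinase receptors together with heparan sulfate chains on the cell surface, and the active receptors signal through adaptor proteins to RAS and the kinase ERK. ERK output switches on ETS transcription factors and also the Sprouty and Spred proteins, which dampen the same cascade. In the cortex FGFs pattern the early tissue, act on radial glia and later on astrocytes and neurons. The intracellular FGFs are not secreted and bind voltage-gated sodium channels instead.

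Library totals were 41091165 to 47540669 counts in null layer 6, 27465597 to 39703820 in WT layer 5 and 32982957 to 54899002 in WT layer 6. Levels below are CPM, read counts scaled to a common library size by the trimmed mean of M values (TMM), given per library or as mean ± SD over 4 libraries. The targeted gene, Tbr1, lay at 91.6, 97.4, 94.4 and 95.5 CPM in null layer 6, against 168.8, 170.9, 181.3 and 181.9 CPM in WT layer 6, so the transcript was reduced and not absent. The libraries came in closely alike pairs, replicates 1 with 2 and 3 with 4 in both layer 6 groups. The chi-square per degree of freedom between 2 null libraries was 9.003 to 10.8 within pairs and 23.1 to 61.8 across pairs. In WT layer 6 it was 3.26 to 5.18 within pairs and 10.9 to 19.9 across. The layer 5 libraries paired as replicates 1 with 3 and 2 with 4, at 1.33 to 1.40 within pairs, near the 1 that counting noise alone gives, and 2.97 to 3.41 across. Each of these pairs holds 1 library of batch B and 1 of batch C, so the 2 batches are not shown to be separate samples. Xist, the RNA made from the inactive X chromosome, was at 262.4 to 299.2 CPM in null layer 6, 39.5 to 41.1 CPM in WT layer 5 and 0.458, 0.448, 289 and 287.2 CPM in WT layer 6. WT layer 6 replicates 1 and 2 were thus far below all other libraries, and the layer 5 libraries lay in between. All null libraries were high in Xist, and of WT layer 6 only replicates 3 and 4 were, so this measure partly follows genotype. No label states that each library had its own animal. The p-values therefore measure the spread between these libraries, which may be technical, and values with each pair summed to 1 library are given where a call is lost. Layer and sequencing batch cannot be told apart, because all layer 6 libraries are batch A and layer 5 libraries are batches B and C. A list of 8 layer 5 markers summed to 347.8 to 360.8 CPM in the libraries labelled layer 5, against 609 to 667.7 CPM in WT layer 6. In the layer 5 libraries 6 of its genes were lower, beside 43.4% of all genes, and 2 were higher, beside 42.2%. The higher genes were Rbp4 and Pcp4 (log2 changes 1.08 and 0.756 with pairs summed). Taken as a whole, that list does not bear out the label.

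Null against WT layer 6 asks what the loss of Tbr1 changes within 1 layer. The secreted ligands Fgf9, Fgf10 and Fgf18 rose in null neurons, as did Fgfr1, Fgfrl1 and Spry2, while Fgfr2 fell. Of 22 members that passed the filter on low counts, 6 rose and 1 fell in edgeR's quasi-likelihood test at a Benjamini-Hochberg adjusted p under 0.05 over all genes. Over all 14588 genes tested, 14.2% were called (7.31% higher and 6.86% lower), against 31.8% of the tested members. On library totals without TMM, the split of all calls moved to 866 higher and 1238 lower (41.2% higher), against 1067 higher and 1001 lower (51.6% higher) with TMM. The groups did not overlap for 8 of the 22 members (36.4%), against 19.9% of all genes tested. With the libraries summed in pairs, 3 members (Fgf9, Fgf10 and Fgf18) were called, all higher, and 3.15% of all genes were called. Without WT layer 6 replicates 1 and 2, the libraries low in Xist, 6 members were higher and 0 lower, beside 831 higher and 675 lower of all genes.

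**Figure D1:**
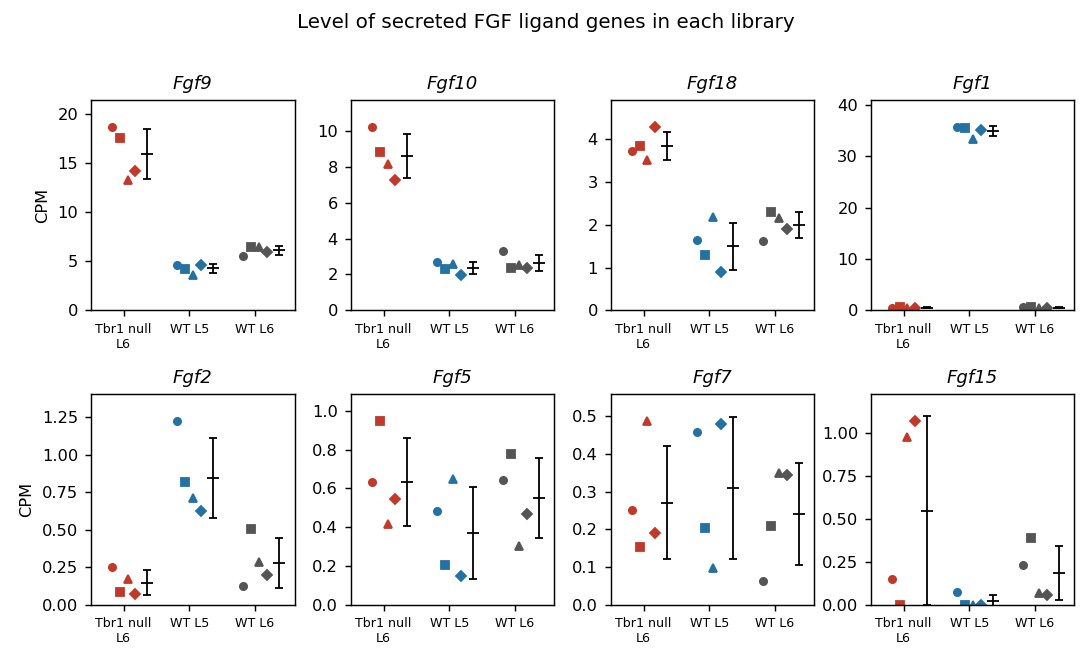
Levels of Fgf9, Fgf10, Fgf18 and the other tested secreted ligands in CPM (y axis) in each library of null layer 6, WT layer 5 and WT layer 6; marker shapes stand for replicates 1 to 4 and the black bar at the right of each group for mean ± SD. All 4 null libraries lie above all other libraries for Fgf9, Fgf10 and Fgf18, and all 4 layer 5 libraries lie above the rest for Fgf1.

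Fgf9, a secreted ligand made by neurons of the embryonic and postnatal brain, lay at 18.7, 17.6, 13.3 and 14.2 CPM in null layer 6, at 4.59, 4.27, 3.60 and 4.68 CPM in WT layer 5 and at 5.58, 6.48, 6.46 and 5.97 CPM in WT layer 6. The null libraries stood clear of both WT groups, with replicates 1 and 2 above replicates 3 and 4. Against WT layer 6 its log2 fold change was 1.39 ± 0.11 (SE), a 2.62-fold higher level (edgeR adjusted p = 2.48e-06). With pairs summed the change was 1.39 ± 0.14, at an adjusted p of 0.00527.

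Fgf10, the ligand that signals mainly through FGFR2 in organ buds and acts on radial glia of the early cortex, lay at 10.2, 8.79, 8.13 and 7.23 CPM in null layer 6, at 2.68, 2.28, 2.6 and 1.96 CPM in WT layer 5 and at 3.31, 2.36, 2.55 and 2.37 CPM in WT layer 6. Every null library held more than every WT library, and the 2 WT groups overlapped. The level was 3.24-fold higher in null than in WT layer 6 (edgeR adjusted p = 3.42e-06, and 0.00443 with pairs summed).

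Fgf18, a close relative of Fgf8 and Fgf17 that is expressed in cortical plate neurons, lay at 3.72, 3.83, 3.51 and 4.27 CPM in null layer 6, at 1.63, 1.29, 2.17 and 0.885 CPM in WT layer 5 and at 1.62, 2.3, 2.16 and 1.90 CPM in WT layer 6. Again the lowest null library exceeded the highest WT library. The log2 fold change against WT layer 6 was 0.95 ± 0.14 (edgeR adjusted p = 5.83e-04), and with pairs summed it was 0.97 ± 0.16, at an adjusted p of 0.0284. Leaving out 1 library at a time moved the change between 1.30 and 1.46 for Fgf9, between 1.60 and 1.82 for Fgf10 and between 0.86 and 1.02 for Fgf18.

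The stretches of 250 bases before the annotated starts of Fgf9, Fgf10 and Fgf18 are printed because these are the ligands that moved together in the null. They are RefSeq sequence of build GRCm38.p6, each written 5′ to 3′ on the strand of its gene, and capitals mark CpG dinucleotides.
Fgf9, chr14:58072436-58072685, plus strand: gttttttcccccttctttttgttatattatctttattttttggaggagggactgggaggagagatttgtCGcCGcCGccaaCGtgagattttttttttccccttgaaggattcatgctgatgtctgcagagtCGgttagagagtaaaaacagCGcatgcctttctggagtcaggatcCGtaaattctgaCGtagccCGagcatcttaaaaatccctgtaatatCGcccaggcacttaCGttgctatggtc
Fgf10, chr13:118714449-118714698, plus strand: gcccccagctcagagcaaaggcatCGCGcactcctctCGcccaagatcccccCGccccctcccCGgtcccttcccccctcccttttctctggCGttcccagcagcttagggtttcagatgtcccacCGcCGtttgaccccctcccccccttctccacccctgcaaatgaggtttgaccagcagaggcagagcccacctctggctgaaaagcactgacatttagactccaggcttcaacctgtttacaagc
Fgf18, chr11:33147401-33147650, minus strand: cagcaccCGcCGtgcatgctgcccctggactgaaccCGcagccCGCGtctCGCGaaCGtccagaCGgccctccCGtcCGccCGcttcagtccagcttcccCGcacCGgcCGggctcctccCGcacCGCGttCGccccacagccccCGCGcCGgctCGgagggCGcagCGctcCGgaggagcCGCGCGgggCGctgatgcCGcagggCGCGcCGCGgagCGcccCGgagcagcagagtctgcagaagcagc
The Fgf18 stretch held 37 CpG and 77.2% G or C, that of Fgf9 held 11 CpG and 44.8%, and that of Fgf10 held 8 CpG and 61.2%, beside medians of 6 CpG and 52.4% over the 32851 stretches of this length in the table. The T-box half-site letters GGTGTGA and the shorter GTGTGA contained in them were searched on both strands. Neither matched in the 3 stretches. GGTGTGA was in 1095 of the 32851 stretches (3.33%) and GTGTGA in 4039 (12.3%). Of the 25 members with an entry in the table, Fgf5 and Fgf23 held both. The binding peaks of the series are in another build and were not used here.

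The other secreted ligands that passed the filter showed no call between null and WT layer 6. Fgf1, the acidic FGF, a ligand of all the kinase receptors, averaged 0.578 ± 0.0877 CPM in null and 0.545 ± 0.153 CPM in WT layer 6, with a log2 change of 0.10 ± 0.28 (adjusted p = 0.851). Fgf5 averaged 0.634 ± 0.226 CPM in null and 0.549 ± 0.205 CPM in WT layer 6, and Fgf7, a ligand of an FGFR2 splice form, 0.271 ± 0.15 CPM in null and 0.241 ± 0.136 CPM in WT layer 6. Intervals of 2 SE around their log2 changes ran from -0.45 to 0.92 for Fgf5 and from -0.89 to 1.16 for Fgf7, wide enough to hold sizeable changes in either direction. Fgf2, the basic FGF, did not pass the filter here and lay at 0.252, 0.088, 0.17 and 0.0711 CPM in null, against 0.125, 0.507, 0.283 and 0.199 CPM in WT layer 6.

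Fgf15, an endocrine ligand and the mouse counterpart of human FGF19, divided along the library pairs. It had 7, 0, 40 and 45 counts in null layer 6, 3, 0, 0 and 0 in WT layer 5 and 11, 13, 3 and 3 in WT layer 6. In null layer 6 the higher counts were in replicates 3 and 4, and in WT layer 6 they were in replicates 1 and 2. The log2 change between null and WT layer 6 was 1.64 ± 0.90 (adjusted p = 0.266). It was 2.58 (adjusted p = 0.0106) without null replicates 1 and 2 and -1.15 without null replicates 3 and 4.

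Of the remaining secreted ligands, 10 passed the filter in no comparison of the single libraries, as did Spry3. Fgf4, Fgf6 and Spry3 had 0 counts in all 12 libraries, which allows up to 0.0631 to 0.0730 CPM in a null library, 0.0756 to 0.109 CPM in a layer 5 library and 0.0547 to 0.0910 CPM in a WT layer 6 library. Such limits cover counting error only. Fgf8 and Fgf21 had 1 count each over the 12 libraries, Fgf20 had 2, Fgf22 4, Fgf17 19 and Fgf3 21. Fgf8, Fgf17 and Fgf3 are ligands of early patterning centres. Fgf23, a phosphate hormone made mainly by bone, had 71 counts in all, and Fgf16 had 93. Fgf16 averaged 0.105 ± 0.0614 CPM in null layer 6, with means of 0.410 ± 0.18 CPM in layer 5 and 0.111 ± 0.0793 CPM in WT layer 6. With pairs summed Fgf16 passed the filter, and edgeR called it higher in layer 5 than in WT layer 6 (adjusted p = 0.0108) and than in null layer 6 (0.0173). It had 1 to 20 counts per library.

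Called receptor changes were smaller in size than those of Fgf9, Fgf10 and Fgf18. Fgfr1, the receptor most widely used by neurons and their progenitors, lay at 168.2, 170.7, 199.9 and 198.4 CPM in null layer 6, against 152.5, 160.1, 153.5 and 150.2 CPM in WT layer 6. All null libraries were above all WT layer 6 libraries, and null replicates 3 and 4 stood highest. The same libraries held the largest shares of reads from the ribosomal RNA gene Rn45s, at 1.63% and 2.67%, beside 0.921% and 0.592% in null replicates 1 and 2 and 0.384% to 0.723% in WT layer 6; its part in the Fgfr1 values was not tested. The log2 change was 0.26 ± 0.06 (edgeR adjusted p = 0.0067). It was 0.37 without null replicates 1 and 2 and 0.14 without null replicates 3 and 4, and with pairs summed the adjusted p was 0.18.

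Fgfr2 lay at 53.4, 55.1, 52.9 and 55.7 CPM in null layer 6, against 62.3, 56.5, 58.7 and 61.3 CPM in WT layer 6. The groups did not overlap, by a narrow margin. Its log2 change was -0.14 ± 0.04 (adjusted p = 0.037). The call was lost when null replicate 1, 2 or 3 or WT layer 6 replicate 1, 3 or 4 was left out (adjusted p 0.0604 to 0.112), and with pairs summed (0.229).

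Fgfr3, a receptor of astrocytes and their progenitors, averaged 38.4 ± 0.395 CPM in null and 40.8 ± 1.80 CPM in WT layer 6, at a log2 change of -0.09 ± 0.04 (adjusted p = 0.206). Fgfr4 was low, at 0.378, 0.770, 0.828 and 0.830 CPM in null, against 0.416, 0.746, 0.502 and 0.506 CPM in WT layer 6 (adjusted p = 0.47). Its groups overlapped. Fgfrl1, which binds FGFs and lacks the kinase domain, lay at 15.1, 14.5, 12.0 and 13.7 CPM in null, against 10.9, 11.4, 10.6 and 10.6 CPM in WT layer 6. Each null library was above each WT layer 6 library, at a log2 change of 0.35 ± 0.08 (edgeR adjusted p = 0.00779). The adjusted p was 0.15 with pairs summed, 0.06 without WT layer 6 replicates 3 and 4 and 0.101 without null replicates 1 and 2.

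**Figure D2:**
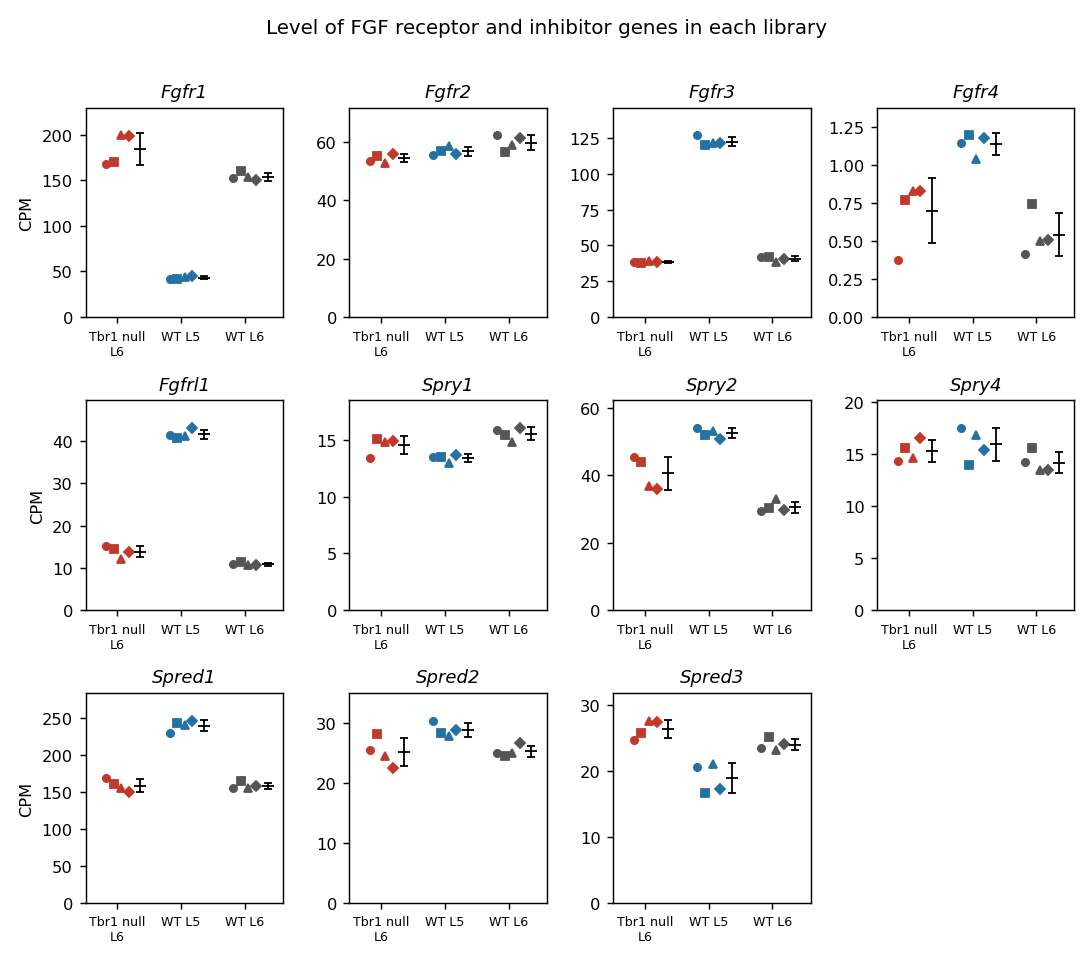
Levels of the receptor and inhibitor genes in CPM (y axis) in each library of null layer 6, WT layer 5 and WT layer 6, with replicate shapes and mean ± SD bars as in the plot of the ligands. Layer 5 stands apart for Fgfr1 (low) and for Fgfr3, Fgfrl1 and Spred1 (high), and the null libraries lie above WT layer 6 for Fgfr1, Fgfrl1 and Spry2.

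Of the 6 feedback inhibitors tested, Spry2 alone was called between null and WT layer 6, a share near the 14.2% of all genes called. It lay at 45.5, 43.9, 37.0 and 36.0 CPM in null, against 29.3, 30.2, 32.9 and 29.6 CPM in WT layer 6. The lowest null library was above the highest WT layer 6 library, and null replicates 1 and 2 were the highest, the same libraries that were highest for Fgf9. The log2 change was 0.41 ± 0.07 (edgeR adjusted p = 0.00219), and with pairs summed the adjusted p was 0.0927.

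Spry1 averaged 14.5 ± 0.762 CPM in null and 15.6 ± 0.554 CPM in WT layer 6 (adjusted p = 0.327), and Spry4 15.3 ± 1.03 CPM in null and 14.1 ± 0.989 CPM in WT layer 6 (adjusted p = 0.34). The Spred proteins inhibit RAS signalling together with neurofibromin. Spred1 averaged 158.5 ± 8.25 CPM in null and 158.1 ± 4.28 CPM in WT layer 6, with an interval of 2 SE around its log2 change from -0.07 to 0.08. Spred2 averaged 25.2 ± 2.35 CPM in null and 25.4 ± 0.917 CPM in WT layer 6, with an interval from -0.14 to 0.12. Spred3 averaged 26.4 ± 1.42 CPM in null and 24.0 ± 0.838 CPM in WT layer 6, at a log2 change of 0.14 ± 0.05 (adjusted p = 0.105).

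No intracellular FGF was called between null and WT layer 6 in edgeR or limma voom, and DESeq2 called Fgf13 as higher (adjusted p = 0.04). With libraries left out, edgeR called Fgf13 without null replicate 4 (adjusted p = 0.00272) and without null replicates 3 and 4 (2.01e-04), and Fgf12 without null replicate 3 (0.0493) and without null replicates 3 and 4 (0.0114), all as higher in null. Fgf11 averaged 11.7 ± 0.585 CPM in null and 13.2 ± 0.911 CPM in WT layer 6; the groups did not overlap, and the adjusted p was 0.136. Fgf12 averaged 63.2 ± 6.06 CPM in null and 57.5 ± 2.96 CPM in WT layer 6 (adjusted p = 0.179), and Fgf14, whose human counterpart is mutated in a hereditary ataxia, 26.4 ± 1.74 CPM in null and 27.2 ± 1.26 CPM in WT layer 6 (adjusted p = 0.667). Fgf13, an X-linked gene, lay at 92.0, 92.1, 81.4 and 71.2 CPM in null, against 74.3, 75.8, 73.0 and 71.5 CPM in WT layer 6 (adjusted p = 0.081). The null values of Fgf13 overlapped WT layer 6 at replicate 4. Its WT layer 6 level lay within 71.5 to 75.8 CPM, in the Xist-low and the Xist-high libraries alike.

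**Figure D3:**
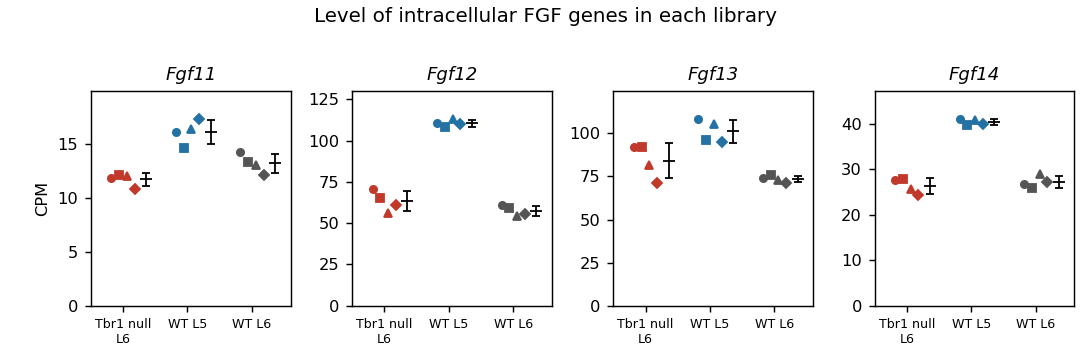
Levels of Fgf11, Fgf12, Fgf13 and Fgf14 in CPM (y axis) in each library of null layer 6, WT layer 5 and WT layer 6, with replicate shapes and mean ± SD bars as in the plot of the ligands. For all 4 genes the WT layer 5 libraries lie above the WT layer 6 libraries, while null and WT layer 6 overlap for Fgf12, Fgf13 and Fgf14.

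Other genes of the pathway were taken from lists by role. Of 10 genes that FGF and ERK signalling induces, 5 rose in the null and 0 fell, with a median log2 change of 0.15, beside 7.31% of all genes higher and a median of 0.00. The count of risers was 3 without null replicate 2 or WT layer 6 replicate 3, and also without null replicates 1 and 2. Dusp4, a phosphatase of ERK, averaged 137.8 ± 14.5 CPM in null and 93.4 ± 7.36 CPM in WT layer 6 (log2 change 0.56 ± 0.07, edgeR adjusted p = 1.26e-04). Etv1, an ETS factor that also marks layer 5, averaged 45.7 ± 0.54 CPM in null and 37.0 ± 0.687 CPM in WT layer 6 (adjusted p = 7.79e-05). Il17rd, a membrane inhibitor of FGF signalling also called Sef, averaged 14.9 ± 1.16 CPM in null and 10.4 ± 0.865 CPM in WT layer 6 (adjusted p = 7.54e-04). Etv4, another ETS factor, averaged 14.1 ± 1.03 CPM in null and 11.4 ± 0.945 CPM in WT layer 6 (adjusted p = 0.0174). With pairs summed, 2 of these risers, Dusp4 and Etv1, were called (adjusted p 0.0275 and 0.0357), beside 3.15% of all genes. In that setting Dusp5, Egr1 and Etv5 had log2 changes of -0.742, -0.213 and -0.0172 and were not called. The other genes of the list lay above 0. Dusp5 had 10 to 59 counts per library.

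Of 22 adaptor and kinase genes between receptor and ERK, 0 rose and 3 fell in edgeR's test, a share near the 14.2% of all genes, and with pairs summed 0 fell. With 1 library left out, 0 to 1 rose and 1 to 3 fell, with 1 faller without null replicate 1 or WT layer 6 replicate 1 or 2. Mapk3, which encodes the kinase ERK1, averaged 55.4 ± 2.95 CPM in null and 65.0 ± 2.86 CPM in WT layer 6 (log2 change -0.23 ± 0.05, adjusted p = 0.00483). The adaptor gene Shc1 had a log2 change of -0.29 ± 0.08 (adjusted p = 0.0392).

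Of 18 tested co-receptor and binding partner genes, 3 rose and 2 fell, beside 7.31% and 6.86% of all genes. With pairs summed 1 rose and 0 fell, beside 3.15% of all genes called in either direction. The riser with pairs summed was Flrt3, which encodes an adhesion protein that binds FGF receptors and latrophilins. It lay at 194.0, 184.4, 137.9 and 137.9 CPM in null, against 78.7, 78.4, 81.2 and 82.2 CPM in WT layer 6. The null libraries stood far above WT layer 6, again with replicates 1 and 2 highest (log2 change 1.03 ± 0.10, edgeR adjusted p = 1.19e-05). Gpc5, a glypican, averaged 3.32 ± 0.683 CPM in null and 1.56 ± 0.411 CPM in WT layer 6 (log2 change 1.07 ± 0.21, adjusted p = 0.00404, and 0.0753 with pairs summed).

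Of 22 genes that make or edit heparan sulfate, 5 rose and 6 fell in the null, beside 7.31% and 6.86% of all genes. With pairs summed 2 rose and 5 fell, beside 3.15% of all genes called in either direction. Hs3st5, a 3-O-sulfotransferase gene, averaged 3.22 ± 0.589 CPM in null and 12.4 ± 0.911 CPM in WT layer 6 (log2 change -1.95 ± 0.12, edgeR adjusted p = 1.97e-07). Hs3st4 of the same family, itself a layer 6 marker, averaged 34.3 ± 2.19 CPM in null and 64.7 ± 3.18 CPM in WT layer 6 (adjusted p = 1.25e-07). Of the 6 Hs3st genes tested, a subgroup singled out after values were seen, 5 fell and 0 rose. Ndst3, an N-deacetylase and N-sulfotransferase gene, averaged 17.1 ± 0.405 CPM in null and 9.48 ± 0.507 CPM in WT layer 6, and Sulf2, which removes 6-O-sulfates from the finished chain, 101.4 ± 3 CPM in null and 76.5 ± 3.39 CPM in WT layer 6; both rose (adjusted p 1.00e-06 and 1.21e-05).

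Of 11 tested partners of the intracellular FGFs, 4 rose and 1 fell, beside 7.31% and 6.86% of all genes. With pairs summed 1 rose and 1 fell, beside 3.15% of all genes called in either direction. The risers were 2 without null replicate 1 or 2 or WT layer 6 replicate 4, and 2 with any layer 6 pair left out. Scn2a1, a sodium channel gene of young axons, averaged 222.5 ± 8.14 CPM in null and 297.3 ± 6.90 CPM in WT layer 6 (log2 change -0.42 ± 0.03, adjusted p = 3.12e-06). Scn9a averaged 10.6 ± 0.927 CPM in null and 7.06 ± 0.931 CPM in WT layer 6 (log2 change 0.59 ± 0.10, adjusted p = 0.0015).

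**Figure D4:**
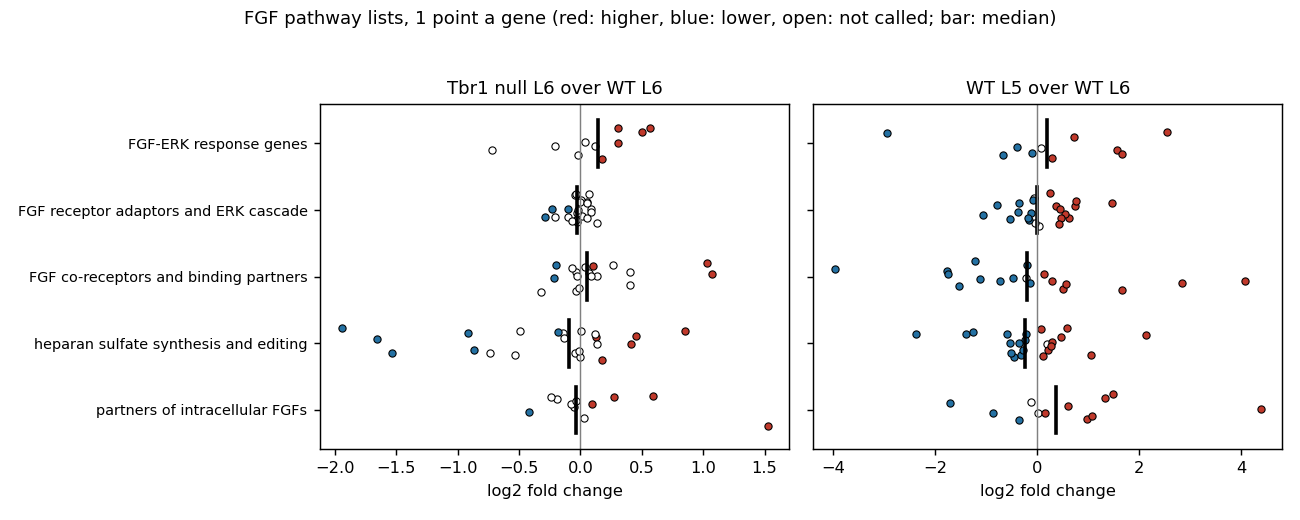
Log2 fold changes (x axis) of the tested genes of each pathway list, each point a gene, for null against WT layer 6 and WT layer 5 against WT layer 6. Red points were called higher, blue points lower and open points were not called, and the black bar is the median of the list. The response genes hold 5 risers and 0 fallers in null against WT layer 6, and most genes of every list are called between the layers.

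Markers of layers and of other cell types also differed in this contrast. Beside the counts below, 7.31% of all genes tested were called higher and 6.86% lower. The summed level of 10 astrocyte markers was 1062 to 1121 CPM in null libraries, against 859 to 986.8 CPM in WT layer 6, and 6 of the 10 rose and 1 fell. Sums for 10 oligodendrocyte-lineage genes were 257.9 to 271.5 CPM in null and 260.2 to 273.1 CPM in WT layer 6 (2 rose and 4 fell), and for 9 vascular genes 294.2 to 300.5 CPM in null and 317 to 328.3 CPM in WT layer 6 (0 rose and 2 fell). For 8 dividing progenitor genes the sums were 692.5 to 716.4 CPM in null and 639 to 655 CPM in WT layer 6 (5 rose and 0 fell). For 9 microglia genes they were 86.9 to 92.7 CPM in null and 89.8 to 102.1 CPM in WT layer 6. The 8 layer 6 corticothalamic markers, Tbr1 and Hs3st4 among them, summed to 385.5 to 426.5 CPM in null and 633 to 690 CPM in WT layer 6 (6 fell and 0 rose). The 8 layer 5 markers, Etv1 among them, summed to 796.3 to 871.8 CPM in null and 609 to 667.7 CPM in WT layer 6 (5 rose and 0 fell). Of 5 subplate and layer 6b markers tested 4 fell and 0 rose, of 10 interneuron markers 1 rose and 4 fell, and of 6 Cajal-Retzius cell markers 1 rose and 3 fell, with sums of 70.5 to 80.5, 343 to 351.3 and 53.1 to 64.5 CPM in null, against 124.1 to 148.2, 362.4 to 382.6 and 77.2 to 82.9 CPM in WT layer 6. The 5 excitatory neuron markers summed to 980.9 to 1026 CPM in null and 1143 to 1207 CPM in WT layer 6 (2 fell and 0 rose). No marker of these lists was at 0 in any group. In bulk libraries fewer cells of a type and less RNA per cell cannot be told apart, and the part of these lists in the FGF values was not tested.

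WT layer 5 against WT layer 6 asks how the 2 labelled layers differ. Fgf1 separated them most among the members, at 35.6, 35.5, 33.3 and 35.1 CPM in WT layer 5, against 0.666, 0.686, 0.393 and 0.434 CPM in WT layer 6. Fgfr3, Fgfrl1, Fgf12 and Spred1 were higher in layer 5, and Fgfr1 and Fgf9 were lower. Of 22 tested members 12 were higher and 4 lower in layer 5 in edgeR's test (72.7%), against 85.5% of the 14927 genes tested (42.2% higher and 43.4% lower), so members were called no more often than genes at large. The groups did not overlap for 16 of 22 members (72.7%), against 81.2% of all genes. With pairs summed, 78.5% of all genes were called.

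**Figure D5:**
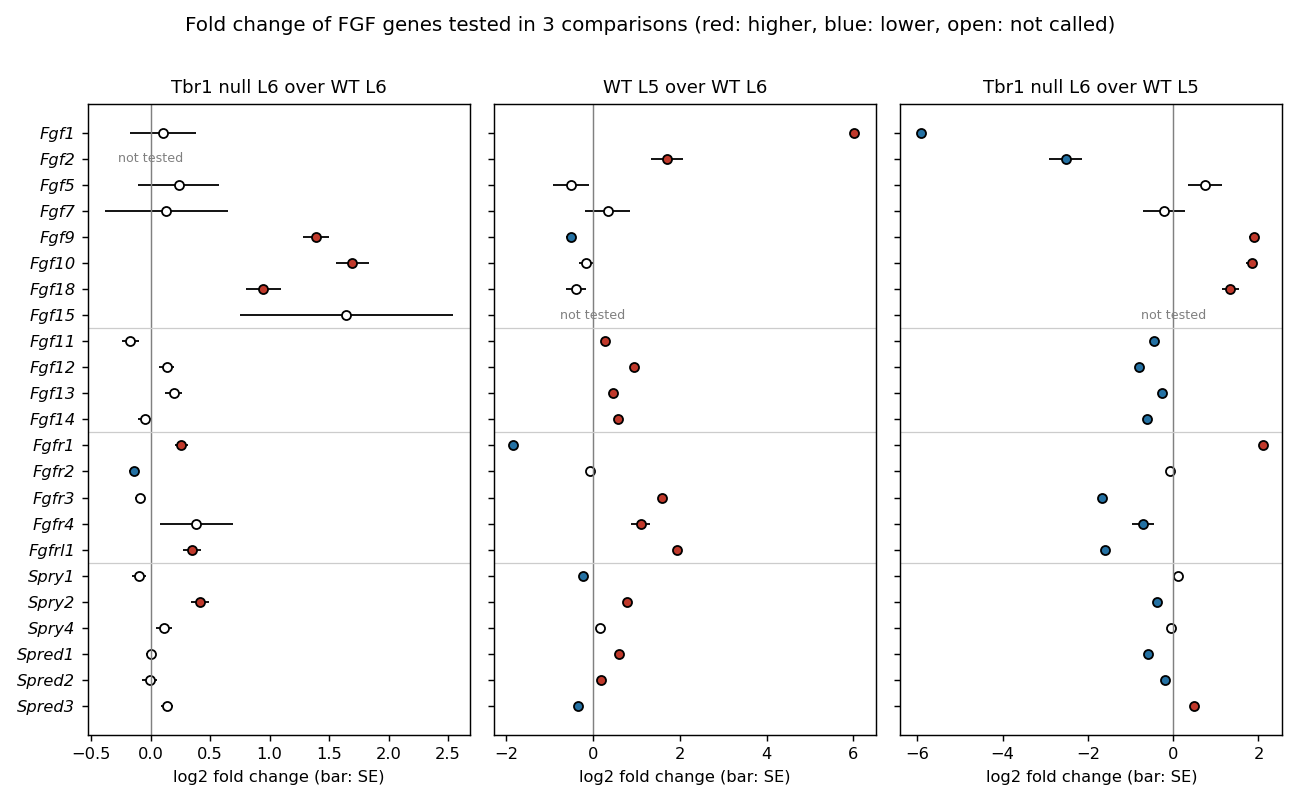
Log2 fold changes (x axis, with bars of 1 SE, and with a different range in each panel) of the tested members for null against WT layer 6, WT layer 5 against WT layer 6 and null layer 6 against WT layer 5. Red points were called higher, blue points lower and open points were not called; Fgf9, Fgf10 and Fgf18 lead the called members of the first panel, and Fgf1, at 6.02 and -5.91, lies far from the other members in the other two.

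For Fgf1 the log2 change was 6.02 ± 0.11, a 65-fold higher level in layer 5 (edgeR adjusted p = 9.73e-16), and the 4 layer 5 libraries, of batches B and C, lay within 33.3 to 35.6 CPM. Fgf2 was higher too, at 1.22, 0.819, 0.714 and 0.627 CPM in WT layer 5, against 0.125, 0.507, 0.283 and 0.199 CPM in WT layer 6 (log2 change 1.70 ± 0.37, adjusted p = 6.43e-04). The Fgf2 groups did not overlap. Fgf2 passed the filter on low counts only in comparisons with layer 5, so the group where it is high let it into the test. It had 17 to 48 counts in layer 5 libraries and 6 to 17 in WT layer 6. Under a filter at CPM 1 in 4 libraries it was no longer called. Fgf9 was the 1 secreted ligand that was lower in layer 5 (log2 change -0.51 ± 0.11, adjusted p = 4.10e-04). Fgf10 and Fgf18 had log2 changes of -0.16 ± 0.16 and -0.40 ± 0.23 and were not called (adjusted p 0.372 and 0.115), nor were Fgf5 and Fgf7.

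Fgfr1 lay at 41.6, 41.9, 43.4 and 45.5 CPM in WT layer 5, less than any WT layer 6 library held (log2 change -1.84 ± 0.04, 3.59-fold lower, edgeR adjusted p = 2.50e-15). Fgfr3 ran the other way, at 127.2, 119.9, 121.3 and 121.6 CPM in WT layer 5, against 42.3, 42.3, 38.5 and 40.2 CPM in WT layer 6 (log2 change 1.58 ± 0.04, 2.99-fold higher, adjusted p = 1.79e-14). Fgfrl1 was 3.83-fold higher, at 41.7 ± 1.09 CPM in layer 5 and 10.9 ± 0.378 CPM in WT layer 6. Fgfr4 averaged 1.14 ± 0.0718 CPM in layer 5 and 0.542 ± 0.142 CPM in WT layer 6 (adjusted p = 4.55e-04). Fgfr2 averaged 56.7 ± 1.44 CPM in layer 5 and 59.7 ± 2.62 CPM in WT layer 6 and missed the threshold (adjusted p = 0.0536, and 0.0486 with pairs summed), so of the 4 kinase receptor genes 2 were higher, 1 was lower and 1 was not called.

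Markers of glia moved with these receptor values. The 10 astrocyte markers summed to 5370 to 5398 CPM in layer 5 libraries, against 859 to 986.8 CPM in WT layer 6. All 10 were higher, beside 42.2% of all genes. Oligodendrocyte-lineage, microglia and vascular lists were likewise higher, in 10 of 10, 9 of 9 and 9 of 9 genes, with sums of 1117 to 1128, 293.5 to 304.7 and 683.5 to 700.1 CPM in layer 5, against 260.2 to 273.1, 89.8 to 102.1 and 317 to 328.3 CPM in WT layer 6. Sums for 5 excitatory neuron markers were 622.9 to 690.8 CPM in layer 5 and 1143 to 1207 CPM in WT layer 6. This list was split, with 2 genes higher and 3 lower in layer 5, beside 42.2% and 43.4% of all genes. The part of these lists in the differences of Fgf1, Fgf2, Fgfr3, Fgfrl1 and Fgfr1 was not tested.

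Among the inhibitors, Spry2 averaged 52.6 ± 1.41 CPM in layer 5 and 30.5 ± 1.60 CPM in WT layer 6 (log2 change 0.78 ± 0.04, edgeR adjusted p = 1.77e-10). Spred1 averaged 239.6 ± 7.26 CPM in layer 5 and 158.1 ± 4.28 CPM in WT layer 6 (log2 change 0.59 ± 0.03), and Spred2 28.9 ± 1.11 CPM in layer 5 and 25.4 ± 0.917 CPM in WT layer 6 (0.18 ± 0.05, adjusted p = 0.00218, and 0.0551 with pairs summed). Spred3 and Spry1 were lower, at 18.9 ± 2.27 and 13.4 ± 0.316 CPM in layer 5, against 24.0 ± 0.838 and 15.6 ± 0.554 CPM in WT layer 6. Thus the 2 families held members of both directions. Spry4 was not called (0.17 ± 0.08, adjusted p = 0.053).

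All 4 intracellular FGFs were higher in layer 5, beside 42.2% of all genes higher and 85.5% called in either direction. Fgf12 lay at 110.7, 107.9, 113.2 and 110.1 CPM in WT layer 5, against 60.7, 59.3, 54.4 and 55.8 CPM in WT layer 6 (log2 change 0.94 ± 0.04, edgeR adjusted p = 6.66e-12). Fgf14 had a log2 change of 0.56 ± 0.04, Fgf13 of 0.46 ± 0.04 and Fgf11 of 0.28 ± 0.07 (adjusted p 9.00e-09, 1.48e-07 and 0.00159). None of the 4 genes overlapped between the groups, and neither did 81.2% of all genes.

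Most genes of each pathway list were called between the layers, as were most genes at large. Of the 10 response genes 5 were higher and 4 lower in layer 5, among them Dusp4 at 12.2 ± 0.748 CPM in layer 5 and 93.4 ± 7.36 CPM in WT layer 6 and Etv4 at 66.9 ± 3.25 CPM in layer 5 and 11.4 ± 0.945 CPM in WT layer 6. These 2 genes moved in opposite directions (log2 changes -2.94 ± 0.06 and 2.54 ± 0.06). Of the 22 adaptor and cascade genes 10 were higher and 9 lower. Of the 18 co-receptors and partners 7 were higher and 10 lower, led by Gpc2, a neuronal glypican, at 15.2 ± 0.448 CPM in layer 5 and 237.4 ± 12.1 CPM in WT layer 6. Of the 22 heparan sulfate genes 9 were higher and 12 lower, and of 12 tested partners of intracellular FGFs 7 were higher and 3 lower. The channel gene Scn8a averaged 109.6 ± 3.05 CPM in layer 5 and 43.1 ± 1.55 CPM in WT layer 6, and Ank3, the ankyrin of the axon initial segment, 432.8 ± 12.7 CPM in layer 5 and 204.0 ± 6.57 CPM in WT layer 6.

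Null layer 6 against WT layer 5 differed in genotype, layer and batch together, which cannot be told apart, and shares its libraries with both comparisons above. Of 22 tested members 17 were called in edgeR's test (77.3%), 5 higher and 12 lower in null layer 6, against 84.3% of 15013 genes (42.4% higher and 41.8% lower). The groups did not overlap for 16 of them (72.7%), against 79.9% of all genes. The 5 members higher in null layer 6 were Fgf9, Fgf10, Fgf18, Fgfr1 and Spred3, with log2 changes of 1.90 ± 0.12, 1.84 ± 0.13, 1.34 ± 0.20, 2.1 ± 0.06 and 0.48 ± 0.07. The 12 lower were Fgf1, Fgf2, the 4 intracellular FGFs, Fgfr3, Fgfr4, Fgfrl1, Spry2, Spred1 and Spred2. Of these calls, Fgfr4 was lost with pairs summed (adjusted p = 0.0841) and without null replicate 1 (0.0536), and Spred2 with pairs summed (0.0604) and without null replicates 3 and 4 (0.179). The call of Fgf2, which entered this test through its layer 5 counts, was lost under the filter at CPM 1 in 4 libraries. Spry2 stood in between: its null libraries lay below the layer 5 libraries (log2 change -0.37 ± 0.07, adjusted p = 1.03e-04) and above WT layer 6. For Fgf1 the null libraries, at 0.504 to 0.704 CPM, overlapped the WT layer 6 libraries, at 0.393 to 0.686 CPM, and lay far below layer 5 (log2 change -5.91 ± 0.09 against layer 5).

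In order of mean level over the groups, Fgf9, Fgf10 and Fgf18 were highest in null layer 6, then WT layer 6, then WT layer 5, and the WT groups overlapped for Fgf10 and Fgf18. Fgfr1 ran from null layer 6 over WT layer 6 to WT layer 5. Spry2 and Fgfrl1 ran from WT layer 5 over null layer 6 to WT layer 6. Fgfr2 and Spry4 had no pair of groups further apart than a log2 difference of 0.17 in size.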

How the data were processed

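RNA was measured in 12 libraries, each from about 25000 sorted cells and made as stranded, ribosome-depleted total RNA, per the labels' protocols. The authors deposited a table of raw counts, in whole reads. STAR 2.5.2b, HTSeq and bedtools are named in the submitters' processing notes, with mm9 as the build; the annotation and strand option of HTSeq are not given in the sources used. The authors also deposited equalised values, rounded to whole numbers and treated here as a score because their making is not described. They were used only for signs. Signs were the same for 7 of 7 called members in null against WT layer 6, 15 of 16 in layer 5 against layer 6 and 16 of 17 in null layer 6 against layer 5. The exception was Fgfr4 in both. Its mean score was 0 in layer 5 and in WT layer 6, a tie, and 0.75 in null layer 6, opposite in sign to its call against layer 5. All 24015 genes entered the library totals, and 0 columns were unmatched to a sample. The peak lists and the input and antibody samples were not used here.

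The test was edgeR 4.0.16 (R 4.3.3) on those counts: TMM, filterByExpr by group, a quasi-likelihood fit of only the 2 groups at hand and its F-test, with p adjusted after Benjamini-Hochberg over all genes tested and called under 0.05. SE is the absolute log2 fold change over the square root of F. CPM are on TMM sizes over all 12 libraries. Levels of different genes were not compared, since exon lengths were not used. Alternatives were limma 3.58.1 voom, DESeq2 1.42.0, other scalings and filters, 1 fit of all groups, a replicate block, a minimum fold of 1.5 (glmTreat), single batches, pairs summed and left out, and each library left out. Leaving out pairs and scaling on library totals were added after values were seen. The scripts were tested on simulated data.

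The members, the pathway lists and the marker lists were chosen with earlier results of these data known. All members are accounted for; from each pathway list at most 4 called genes with the smallest adjusted p were named in a comparison; 1 such gene is not reported here. Promoter sequence came from a RefSeq table that held 25 of the 34 members.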

Additional observations from a re-analysis of the deposited data

Results flagged for a closer look

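In 3 of 69 groups of 4 libraries, 1 library lay far from the other 3 by Dixon's 95% criterion, which chance alone gives in about 1 group in 20. Fgfr4 was 0.378 CPM in null layer 6 replicate 1, against 0.770 to 0.830 CPM in the other 3 null libraries. Spry1 was 13.4 CPM in null layer 6 replicate 1, against 14.8 to 15.1 CPM in the others. Fgf15 was 0.0765 CPM in WT layer 5 replicate 1, which is 3 counts, and 0 in the other 3 layer 5 libraries.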

How the results depend on the processing

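Fgf9 and Fgf10 stayed higher and called in null against WT layer 6 under every alternative run, and Fgf18 under all but a minimum fold of 1.5 (glmTreat). That minimum left 2 members higher and 0 lower (all genes 76 and 71), and 7 higher and 1 lower in layer 5 against layer 6 (3569 and 2802). In null layer 6 against layer 5 it left 4 higher and 5 lower (all genes 2752 higher and 3612 lower). With pairs summed, 3 members were higher and 0 lower in null against WT layer 6 (all genes 249 and 230). The count of lower members, 1 (Fgfr2), was 0 to 1 with each library left out and 0 with WT layer 6 replicates 1 and 2 (or 3 and 4) or null replicates 1 and 2 (or 3 and 4) left out. Same-numbered libraries of null and WT layer 6 deviated with correlations of -0.125 to -0.0683, and differently numbered ones with -0.106 to 0.112. These values gave no sign of pairing by number. Their signs follow the closely alike library pairs, so they cannot settle the question. The replicate block left 6 members higher and 0 lower (all genes 812 and 714), with Fgfr2 at an edgeR adjusted p of 0.0818.

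Signs changed only in members that were not called. In null against WT layer 6, leaving out 1 library gave log2 changes of -0.0235 to 0.227 for Fgf1, -0.0205 to 0.422 for Fgf5, -0.29 to 0.382 for Fgf7, -0.0277 to 0.0306 for Spred1 and -0.0653 to 0.0424 for Spred2. Without WT layer 6 replicates 1 and 2, Fgf7 was -0.364, and -0.175 in layer 5 against layer 6. Without WT layer 6 replicates 3 and 4, Fgf1 was -0.223, Fgf5 -0.148, Fgf14 0.00173, Spred1 -0.00568 and Spred2 0.0223. Without null replicates 1 and 2, Fgf5 was -0.166 and Spred1 -0.0527. Without null replicates 3 and 4, Fgf7 was -0.26, Fgf14 0.0289, Fgf15 -1.15 and Spred2 0.0815. On library totals Spred1 was -0.0176. In null layer 6 against layer 5, Fgf7 ran from -0.626 to 0.0865 and was 0.128 without null replicates 1 and 2. The cause was not tested. Between layers, all 16 called members kept their call under other scalings and within batch B or C alone, which are not independent checks, since each batch holds 1 library of each closely alike pair; against null layer 6, Fgfr4 lost its call with batch B or C alone and Spred2 with batch C alone. Counts of a few reads limit Fgf2, Fgf5, Fgf7 and Fgf15.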
